A study of Mus musculus with 5 samples.

Results

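The Tal1-Lmo2-Ldb1-Gata complex genes are 10 mouse genes chosen by name from the 52550 genes of the count table: the helix-loop-helix factors Tal1 and Lyl1, the bridging proteins Lmo2 and Ldb1, the zinc-finger factors Gata1, Gata2 and Gata3, the cofactors Zfpm1 and Cbfa2t3, and Klf1, an erythroid factor that the complex is known to activate. All 10 were found in the table by their gene identifiers. Their levels were compared in KL cells (Lin-cKit+Sca1-), a sorted bone marrow population of committed myeloid progenitors, from 3 BcorΔE9-10 and 2 BcorWT libraries made with a 3′ RNA-seq method (QuantSeq). The question was whether loss of full-length Bcor, a subunit of a Polycomb repressive complex, goes with other levels of these genes in KL cells.

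Per the labels, both genotypes carried the tamoxifen-inducible transgene written scl-Cre-ERT +, together with a floxed Bcor allele (Bcorfl/y) in BcorΔE9-10 mice or an intact one (Bcorwt/y) in BcorWT mice. All were male, were injected with 1 mg tamoxifen on each of 5 days at an age of 3-6 months, and were sampled 20 weeks later. The Cre recombinase of this transgene is driven by a stem cell enhancer of Tal1 (also called SCL), so by the labels a regulatory element of 1 of the 10 genes was present as a transgene in both groups. The methods of the study allow controls with either the transgene or the floxed allele alone, and any effect of the transgene on endogenous Tal1 was not tested. Recombination was aimed at stem cells, and the KL cells are their descendants.

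Tal1 pairs with an E protein on E-box DNA (CANNTG), a GATA factor sits on a nearby GATA site, and Lmo2 and Ldb1 hold them together without binding DNA themselves. Ldb1 also joins with itself, which can bring an enhancer to its promoter. In stem and progenitor cells Gata2 and Lyl1 take part in such assemblies, and during red cell development Gata1 replaces Gata2, with Zfpm1 (FOG1) as its partner and Cbfa2t3 (ETO2) as a corepressor that restrains erythroid target genes.

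The 10 genes lie at separate places in the genome (GRCm38, mm10). Tal1 is at chr4:115056426-115071755, Lmo2 at chr2:103957986-103981878, Ldb1 at chr19:46032593-46045214, Gata1 at chrX:7959260-7978071, Gata2 at chr6:88193891-88207032 and Gata3 at chr2:9857078-9890034. The remaining 4 are on chromosome 8, with Lyl1 at chr8:84701457-84704715, Klf1 at chr8:84901928-84905291, Zfpm1 at chr8:122282141-122337251 and Cbfa2t3 at chr8:122625141-122699109. Tal1, Lyl1, Lmo2, Gata2, Zfpm1 and Klf1 are read from the plus strand and the other 4 from the minus strand.

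Since GATA factors and Tal1 are themselves regulators with binding sites that can be spelled out, the 250 bases before annotated starts (RefSeq, GRCm38.p6) were searched on both strands for 4 forms of the GATA site and 1 form of the E-box. The GATA site was spelled AGATAA in its first form, with AGATAG as the second form, then TGATAA and, as the last form, TGATAG. The E-box form was CAGATG, counted separately whether or not it overlapped a GATA match. RefSeq windows were at hand for 9 of the 10 genes, 14 windows in all, and no window was at hand for Lmo2. Of 32851 such windows genome-wide, 26.5% held a GATA match and 14.4% held CAGATG, and 4.4% held both. The windows of Tal1, Ldb1 and Gata2, genes that were higher in BcorΔE9-10 libraries, are shown with that of Cbfa2t3, which held both motifs. They are printed 5′ to 3′ on the strand of the gene, with motif matches in capitals.
Tal1, chr4:115056176-115056425 (+): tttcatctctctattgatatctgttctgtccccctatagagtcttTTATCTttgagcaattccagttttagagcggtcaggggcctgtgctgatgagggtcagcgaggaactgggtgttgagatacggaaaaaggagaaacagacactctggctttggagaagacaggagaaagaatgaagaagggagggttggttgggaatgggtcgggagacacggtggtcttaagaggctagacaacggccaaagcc
Ldb1, chr19:46037071-46037320 (-): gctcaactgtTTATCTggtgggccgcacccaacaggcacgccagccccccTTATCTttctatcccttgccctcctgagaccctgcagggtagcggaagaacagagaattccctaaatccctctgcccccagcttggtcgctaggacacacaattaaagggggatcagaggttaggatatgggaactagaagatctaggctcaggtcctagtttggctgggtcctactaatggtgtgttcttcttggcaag
Gata2, chr6:88193641-88193890 (+): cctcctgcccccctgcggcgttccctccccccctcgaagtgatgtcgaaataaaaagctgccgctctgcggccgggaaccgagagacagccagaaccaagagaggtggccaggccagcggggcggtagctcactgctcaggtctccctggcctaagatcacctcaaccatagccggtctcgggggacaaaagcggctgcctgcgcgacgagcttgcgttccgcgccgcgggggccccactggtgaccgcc
Cbfa2t3, chr8:122699110-122699359 (-): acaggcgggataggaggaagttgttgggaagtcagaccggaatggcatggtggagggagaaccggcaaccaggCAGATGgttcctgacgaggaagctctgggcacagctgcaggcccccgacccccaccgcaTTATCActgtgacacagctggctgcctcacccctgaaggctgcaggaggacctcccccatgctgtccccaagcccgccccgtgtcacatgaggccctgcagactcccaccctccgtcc

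The Tal1 window shown held 1 GATA match, the Ldb1 window held 2, and the Gata2 window held none. The second annotated windows of Tal1, Gata2 and Cbfa2t3 held neither motif. The Ldb1 window precedes an internal start, and neither of the windows before its 2 other annotated starts held a match. Windows with 2 or more GATA matches made up 6.4% of all windows. The Cbfa2t3 window lies within an exon of Gm10612, a gene on the other strand. Klf1 also had 1 GATA and 1 CAGATG match, and no window of Lyl1, Gata1, Gata3 or Zfpm1 held a GATA match. A match of letters does not show that a factor binds there.

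Library totals ranged from 5998924 to 8303999 counts, and 11766 genes passed the filter on low counts. Of these, 708 were higher and 481 lower in BcorΔE9-10 cells by limma with an adjusted p under 0.05. Of the genes that bear on the sort, Mpo, an early granule gene, had group means of 4928 and 5229 CPM in BcorΔE9-10 and BcorWT libraries, and Ly6a, the gene of the Sca1 antigen that was gated out, had 3 to 8 counts in a library. Itgam, a myeloid lineage antigen gene, had 651 to 1132 counts in a library, and Kit, the gene of the antigen sorted for, was 2.70-fold higher in BcorΔE9-10 libraries. Transcripts of neutrophil genes were present all the same. S100a8 alone took 7.33 to 8.21% of the counts of BcorΔE9-10 libraries and 10.46 to 10.89% of those of BcorWT libraries. Bcor itself was at 24.0 CPM in BcorΔE9-10 and 13.9 CPM in BcorWT libraries (means), which does not check the genotype, because reads at the 3′ end lie outside the deleted exons. The labels do not say that each library came from a separate mouse, so the p-values measure the spread between these libraries.

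Of the 10 genes, 8 passed the filter and 4 of those were called, all of them higher in BcorΔE9-10 cells: Ldb1, Tal1, Gata2 and Lmo2. None was called lower by limma, edgeR or DESeq2, and none was lower at an unadjusted p under 0.05. Among all tested genes, 10.1% were called in either direction, 6.02% higher and 4.09% lower. The same 4 were called with edgeR, beside 11.2% of all tested genes, and with GC correction, beside 8.81% in either direction and 5.39% higher. In 6 of the 8 tested genes every BcorΔE9-10 library lay above both BcorWT libraries and in 1 every one lay below, arrangements seen in 22.5% and 20.3% of all tested genes. The median log2 fold change of the 8 was 0.98, beside 0.00 over all tested genes (0.004 before rounding). The genes were chosen with earlier results of these data known, so their share of calls and their median are not independent evidence. In bulk RNA, a change in the number of cells that express a gene and a change in its RNA per cell cannot be told apart.

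**Figure D1:**
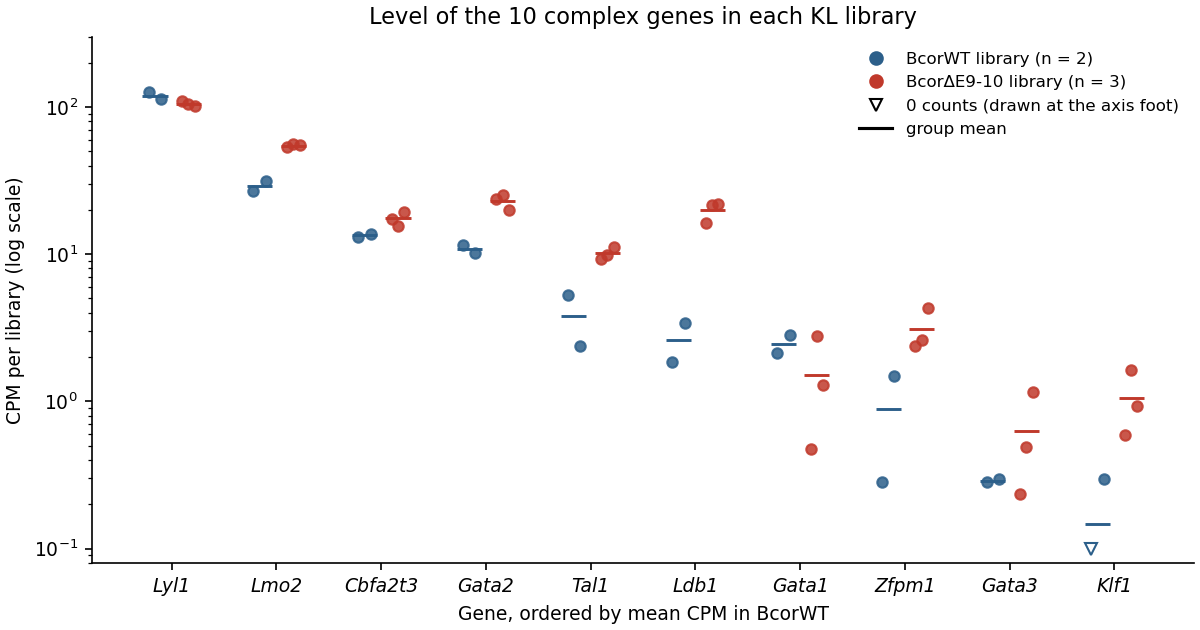
Level of each of the 10 genes in every library, in CPM (counts per 1e+06, log axis), with BcorWT libraries in blue, BcorΔE9-10 libraries in red, horizontal lines at group means and open triangles at the foot for 0 counts. Red points lie above all blue points for Tal1, Lmo2, Ldb1, Gata2, Zfpm1, Cbfa2t3 and Klf1, and below them for Lyl1.

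CPM here counts transcript ends per 1e+06 counted and was not divided by transcript length, since the method reads 1 end of each transcript. In BcorWT libraries the order of levels was Lyl1, Lmo2, Cbfa2t3 and Gata2, each above the next in both libraries, then Tal1, Ldb1 and Gata1, whose ranges overlapped, and lastly Zfpm1, Gata3 and Klf1. In BcorΔE9-10 libraries Lyl1 and Lmo2 were again first and second, and Ldb1 stood beside Gata2 and Cbfa2t3 with overlapping ranges, above Tal1. The remaining 4 genes, Zfpm1, Gata1, Klf1 and Gata3, had overlapping ranges from each to the next. The summed level of the 10 genes was 233, 241 and 237 CPM in BcorΔE9-10 libraries and 187 and 179 CPM in BcorWT libraries.

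Of the helix-loop-helix factors, Tal1, which is required to form blood stem cells and to make red cells and platelets, was higher in BcorΔE9-10 cells. It had 78, 61 and 96 counts in BcorΔE9-10 libraries 1 to 3, or 9.20, 9.94 and 11.2 CPM. In BcorWT libraries 1 and 2 it had 37 and 16 counts, or 5.24 and 2.37 CPM. The groups did not overlap, and the BcorWT libraries differed from each other by more than the BcorΔE9-10 libraries did. Group means were 10.1 ± 1.01 CPM (SD, n = 3) for BcorΔE9-10 and 3.81 ± 2.03 CPM (SD, n = 2) for BcorWT. Tal1 thus had a log2 fold change of 1.48, with SE 0.38, and passed the limma test with an adjusted p of 0.0202. The call rested in part on single libraries. It was lost without BcorΔE9-10 replicate 3 (log2 fold change 1.39, limma adjusted p = 0.0638) and without BcorWT replicate 2, the library with 16 counts (log2 fold change 0.94, limma adjusted p = 0.148).

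Lyl1, the close relative of Tal1 that can stand in for part of its role in adult stem cells, was the most abundant of the 10 and was not called. It stood at 109, 105 and 102 CPM in BcorΔE9-10 libraries and at 126 and 113 CPM in BcorWT libraries. All BcorΔE9-10 values were thus a little below both BcorWT values. The log2 fold change was -0.18 (SE 0.119, 95% interval -0.43 to 0.08, limma adjusted p = 0.371), and after correction for GC content it was 0.01 (limma adjusted p = 0.978), so no direction is given.

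Because a ratio of genes within 1 library does not depend on scaling, Tal1 was also set against Lyl1. The Tal1 share of the summed counts of the pair was 7.77%, 8.62% and 9.94% in BcorΔE9-10 libraries, with 95% Wilson intervals of 6.27 to 9.59%, 6.77 to 10.9% and 8.21 to 12%. In BcorWT libraries the share was 4.01% (2.92 to 5.48%) and 2.05% (1.27 to 3.31%). The intervals of the groups, which cover counting error only, did not overlap. The ratio of Tal1 to Lyl1 was 3.23-fold higher in BcorΔE9-10 libraries on average (exact permutation test, two-sided, p = 0.1, adjusted p = 0.15 over 6 ratios). With 3 libraries against 2, 0.1 is the smallest p this test can give. The last 300 bases are 40.7% GC in Tal1 and 58.3% in Lyl1, and the ratio was not corrected for this.

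Of the bridging proteins, Ldb1 showed the greatest difference among the 8 tested genes. It had 139, 133 and 188 counts in BcorΔE9-10 libraries, or 16.4, 21.7 and 21.9 CPM. In BcorWT libraries it had 13 and 23 counts, or 1.84 and 3.40 CPM. The lowest BcorΔE9-10 library was thus well above the highest BcorWT library. Group means were 20.0 ± 3.12 CPM (SD, n = 3) and 2.62 ± 1.10 CPM (SD, n = 2), a 7.71-fold difference (log2 fold change 2.95, SE 0.429, limma adjusted p = 0.000455). The log2 fold change of Ldb1 was higher than that of 99.2% of all tested genes. It was called in every alternative run, with log2 fold changes from 2.50 without BcorWT replicate 1 to 3.37 without BcorWT replicate 2.

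Ldb1 overlaps Pprc1, a coactivator gene of mitochondrial biogenesis, which is read from the other strand at chr19:46044886-46072915. The exons of the pair share 177 bases, all at their 5′ ends, and none of these is in the last 300 bases of the Ldb1 model that was counted. Pprc1 had 36, 40 and 38 counts in BcorΔE9-10 libraries and 26 and 54 in BcorWT libraries. Its groups overlapped, and its log2 fold change was -0.16 (SE 0.380, limma adjusted p = 0.842). In all 3 BcorΔE9-10 libraries Ldb1 had over 3 times as many counts as Pprc1, and in both BcorWT libraries it had fewer.

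None of the 4 other tested genes that start within 100 kb of Ldb1 was called. The log2 fold change was -0.05 (SE 0.608) for Armh3, -0.38 (SE 0.408) for Hps6 and -0.34 (SE 0.169) for Nolc1, a nucleolar protein gene, with limma adjusted p of 0.969, 0.607 and 0.225. The remaining neighbours, 4930505N22Rik and Elovl3, had 4 counts or fewer in every library and were not tested.

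**Figure D2:**
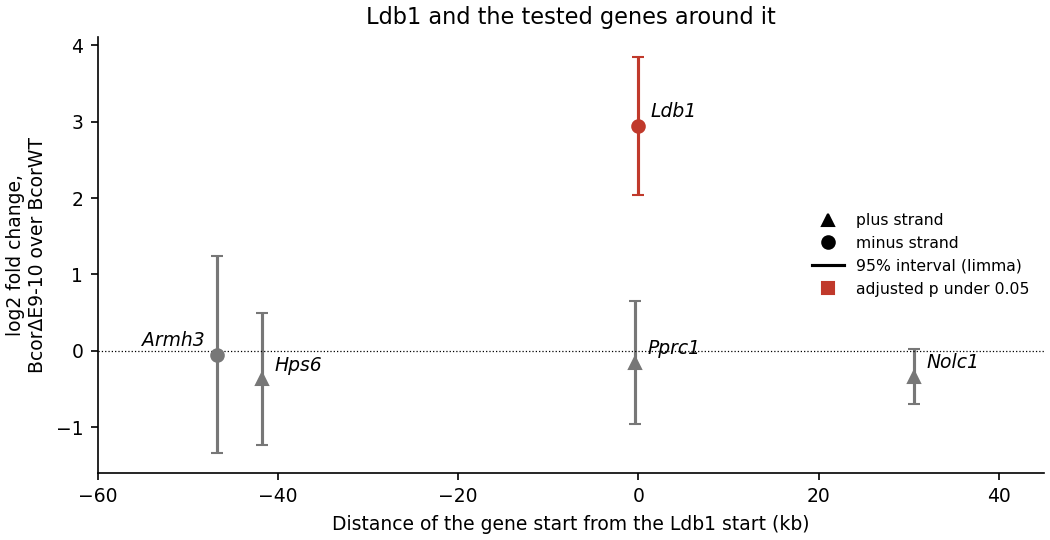
Log2 fold change (BcorΔE9-10 over BcorWT, limma, bars for 95% intervals) of Ldb1 and the tested genes around it, against the distance of each gene's start from that of Ldb1 in kb. Ldb1, at 2.95, is the only one in red (adjusted p under 0.05), and the intervals of Armh3, Hps6, Pprc1 and Nolc1 all include 0.

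The gene model behind the counts ends at position 46032593 for Ldb1, whereas GENCODE M21 continues 1023 bases further and RefSeq 1068 bases further. Reads from that last stretch were therefore not counted, and the counts describe the ends that fall within the shorter model. Whether the use of the Ldb1 ends differs between genotypes was not tested. Among the 197 tested genes whose GENCODE M21 end lay 500 or more bases past the counted end, 10.2% were called and 6.09% were called higher, beside 10.1% and 6.02% of the other 11569. Shares over many genes cannot tell which ends of Ldb1 were used.

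Lmo2, the adaptor between Tal1 and Ldb1, was also higher in BcorΔE9-10 cells. It stood at 53.2, 55.7 and 55.2 CPM in BcorΔE9-10 libraries and at 27.1 and 31.4 CPM in BcorWT libraries. Every BcorΔE9-10 library was above both BcorWT libraries, and the means were 54.7 CPM with an SD of 1.31 over 3 libraries and 29.2 CPM with an SD of 3.03 over 2. The log2 fold change was 0.91 (SE 0.155, limma adjusted p = 0.00163), or 1.87-fold. It was called in every alternative, at its lowest (0.72) with GC correction. The last 300 bases of its transcript are 33.3% GC.

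Both bridging genes rose, and their ratio shows whether they kept their proportion within a library. The ratio of Ldb1 to Lmo2 was 0.308, 0.389 and 0.397 in BcorΔE9-10 libraries and 0.0681 and 0.108 in BcorWT libraries, a 4.22-fold difference of means on the log2 scale (exact permutation p = 0.1, adjusted p = 0.15). The ratio of Tal1 to Lmo2 overlapped between groups (0.173, 0.178 and 0.203 against 0.194 and 0.0755, exact permutation p = 0.3, adjusted p = 0.36).

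Of the GATA factors, Gata2, which maintains stem and early progenitor cells, was higher in BcorΔE9-10 cells. It stood at 23.8, 25.2 and 19.9 CPM in BcorΔE9-10 libraries and at 11.6 and 10.2 CPM in BcorWT libraries. The groups did not overlap. Means were 23.0 ± 2.74 CPM (SD, n = 3) and 10.9 ± 1.00 CPM (SD, n = 2). This 2.08-fold difference (log2 1.05, SE 0.226) passed the limma test with an adjusted p of 0.00726. It was called in every alternative, with log2 fold changes of 0.97 to 1.20.

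Gata1, the GATA factor of red cells, platelets, mast cells and eosinophils, was near the detection limit and was not called. It had 4, 17 and 11 counts in BcorΔE9-10 libraries and 15 and 19 in BcorWT libraries. The groups overlapped, and BcorΔE9-10 library 1 was the lowest. The log2 fold change was -1.09 (SE 0.635, 95% interval -2.44 to 0.25, limma adjusted p = 0.300). It was -0.44 without BcorΔE9-10 replicate 1 and -1.57 without BcorΔE9-10 replicate 2, where the unadjusted p was 0.0428 and the limma adjusted p 0.206.

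Gata3, the GATA factor of T cells and innate lymphoid cells, had 2, 3 and 10 counts in BcorΔE9-10 libraries and 2 and 2 in BcorWT libraries, and did not pass the filter. Gata2 thus supplied most GATA transcript ends in every library. Its share of the summed counts of the 3 genes was 97.1% (95% Wilson interval 93.9 to 98.7%), 88.6% (83.0 to 92.5%) and 89.1% (83.9 to 92.7%) in BcorΔE9-10 libraries. In BcorWT libraries it was 82.8% (74.2 to 89.0%) and 76.7% (66.9 to 84.2%). The highest BcorWT share was below the lowest BcorΔE9-10 share, but the intervals overlapped. The ratio of Gata2 to Lyl1 was 2.38-fold higher in BcorΔE9-10 libraries, and it did not overlap between groups (0.218, 0.240 and 0.197 against 0.0926 and 0.0904, exact permutation p = 0.1, adjusted p = 0.15). This ratio was not corrected for GC content, which was 37.3% in the last 300 bases of Gata2 and 58.3% in those of Lyl1. With GC correction the single log2 fold changes were 0.98 for Gata2 and 0.01 for Lyl1. The ratio of Tal1 to Gata2 did overlap (0.386, 0.394 and 0.561 against 0.451 and 0.232, exact permutation p = 0.5).

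Of the cofactors, Zfpm1, the partner of Gata1, had 20, 16 and 37 counts in BcorΔE9-10 libraries and 2 and 10 in BcorWT libraries. The groups did not overlap in CPM, but the counts were low and the BcorWT libraries lay far apart. The log2 fold change was 2.08 (SE 0.787, 95% interval 0.41 to 3.74) with a limma adjusted p of 0.107, and it ranged from 0.99 without BcorWT replicate 1 to 3.13 without BcorWT replicate 2, not called in any alternative. RefSeq places the end of Zfpm1 611 bases past the end that was counted.

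Cbfa2t3, the corepressor, stood at 17.5, 15.6 and 19.5 CPM in BcorΔE9-10 libraries and at 13.0 and 13.8 CPM in BcorWT libraries. Here too the groups did not overlap, though the gap was small, and the log2 fold change of 0.39 (SE 0.214, 95% interval -0.06 to 0.85) did not pass the test (limma adjusted p = 0.267). The ratio of Cbfa2t3 to Tal1 was 1.90, 1.57 and 1.74 in BcorΔE9-10 libraries and 2.49 and 5.81 in BcorWT libraries. It was 0.456 times as high in BcorΔE9-10 libraries (exact permutation p = 0.1, adjusted p = 0.15).

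Klf1, a regulator of adult globin and other red cell genes, had 5, 10 and 8 counts in BcorΔE9-10 libraries and 0 and 2 in BcorWT libraries, and did not pass the filter. The count of 0 allows a level of up to 0.425 CPM, at 3 counts of that library. Summed over libraries the ratio was 6.85 with an exact 95% interval of 1.69 to 60.0, which covers counting error only. In the fit with no filter on low counts the limma adjusted p was 0.0896 for Klf1 and 0.745 for Gata3.

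**Figure D3:**
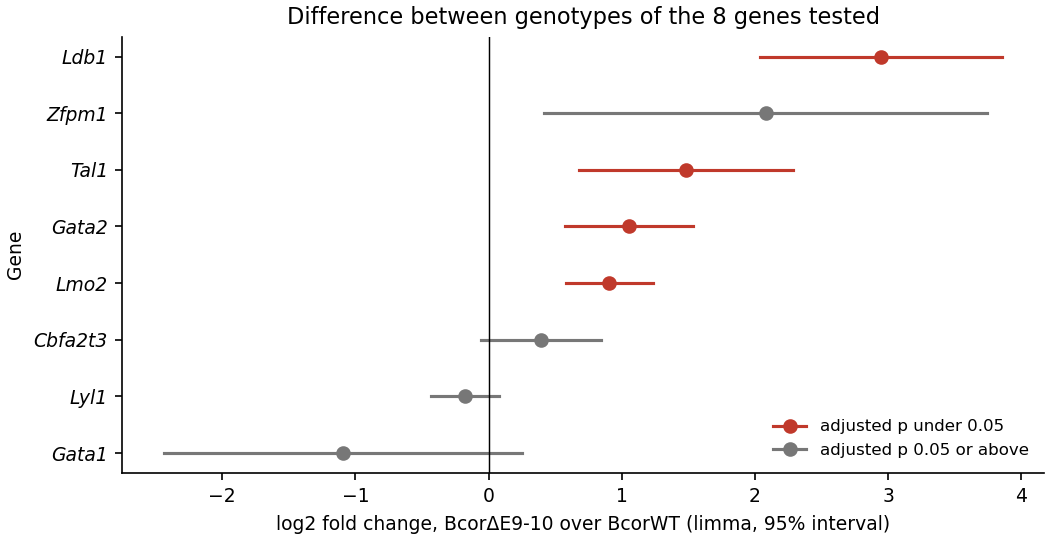
Log2 fold change of BcorΔE9-10 over BcorWT for the 8 genes that passed the filter on low counts, with 95% intervals from limma, in red where the adjusted p was under 0.05. Ldb1, Tal1, Gata2 and Lmo2 are red and to the right of 0, the interval of Zfpm1 lies above 0 though its adjusted p is 0.107, and the intervals of Cbfa2t3, Lyl1 and Gata1 include 0.

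Genes that overlap a member could share reads with it, as the strand setting of the counting is not known. Lyl1 and Nfix, a gene of a nuclear factor on the other strand, share 4 exon bases, all within the last 300 bases of Lyl1. Nfix had 155, 93 and 148 counts in BcorΔE9-10 libraries and 68 and 39 in BcorWT libraries and was higher (log2 fold change 1.17, SE 0.274, limma adjusted p = 0.0126), unlike Lyl1, which had 647 counts or more in every library. Lmo2 overlaps 4931422A03Rik without shared exon bases, and that gene had 3 to 15 counts. The genes that overlap Gata3 (Gm13256, 4930412O13Rik and 9230102O04Rik) and Zfpm1 (Gm20388) had 0 counts in every library. Those that overlap Cbfa2t3 (Gm15899, Gm10612 and Gm20388) had at most 5 counts in a library. Tal1, Gata1, Gata2 and Klf1 overlap no annotated gene. No stretch of 30 bases in the last 300 bases of any of the 10 transcripts recurs in another gene.

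**Figure D4:**
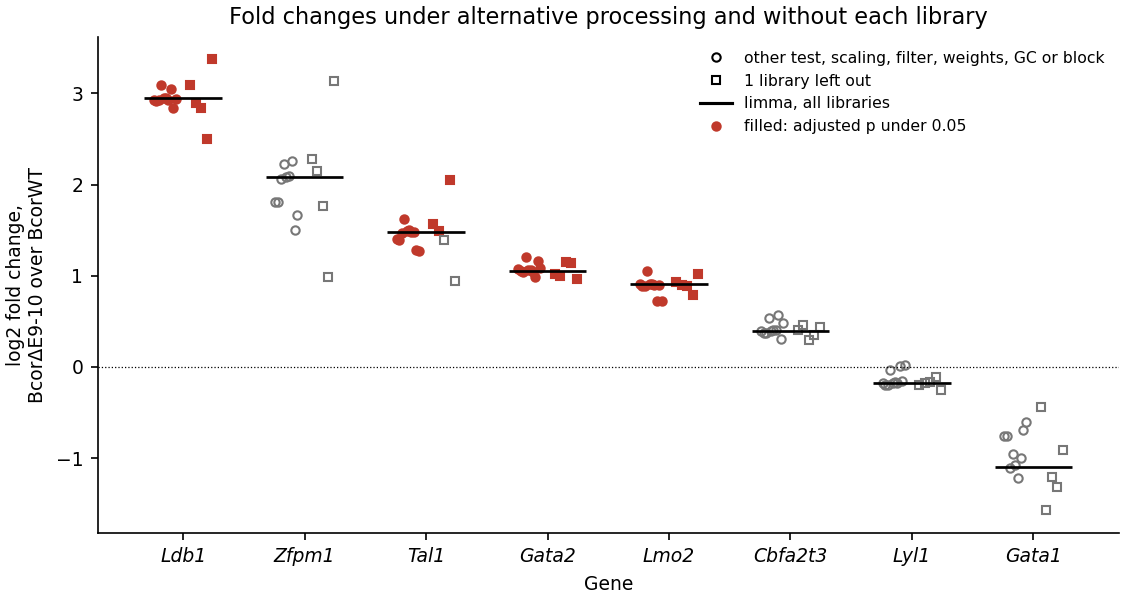
Log2 fold changes of the 8 tested genes under other tests, scalings, filters, weights, GC correction or a replicate block (circles) and with 1 library left out (squares), filled red where the adjusted p was under 0.05, with a black line for limma on all libraries. All symbols are filled for Ldb1, Gata2 and Lmo2, none is filled for Zfpm1, Cbfa2t3, Lyl1 and Gata1, and 2 squares are open for Tal1.

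The proteins that work with the complex were followed in a list of 37 genes, of which 33 were tested. Of these, 2 were called higher and 2 lower, or 12.1%, close to the 10.1% of all tested genes, and the median log2 fold change was 0.17. Irf2bp2, a repressor partner of the ETO2 corepressor, was higher, with 950, 683 and 1007 counts in BcorΔE9-10 libraries and 299 and 481 in BcorWT libraries (log2 fold change 1.05, SE 0.170, limma adjusted p = 0.00112). Mta1, a subunit of the NuRD repressor that FOG1 recruits, was higher as well, with 598, 528 and 636 counts against 243 and 328 (log2 fold change 0.90, SE 0.164, limma adjusted p = 0.00245). Both had all BcorΔE9-10 libraries above both BcorWT libraries in CPM.

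The 2 genes that were lower were Lmo1, a relative of Lmo2, and Spi1, which encodes the myeloid factor PU.1 that opposes Gata1. Lmo1 had 103, 57 and 133 counts in BcorΔE9-10 libraries and 143 and 178 in BcorWT libraries (log2 fold change -0.90, SE 0.229, limma adjusted p = 0.0197). Spi1 had 1326, 894 and 1436 counts against 1617 and 1389 (log2 fold change -0.47, SE 0.114, limma adjusted p = 0.0154). In CPM all BcorΔE9-10 libraries were below both BcorWT libraries for both genes. Without BcorΔE9-10 replicate 1 the list had 2 calls, both higher.

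The E proteins that pair with Tal1 and Lyl1 were not called. Their log2 fold changes were -0.07 (SE 0.211) for Tcf3, 0.25 (SE 0.212) for Tcf4 and 0.09 (SE 0.206) for Tcf12. Their inhibitors Id1 and Id2 stood at 0.05 (SE 0.153) and -0.18 (SE 0.141), and the Ldb1-stabilising protein gene Ssbp3 at 0.34 (SE 0.196). The stem cell factors that bind with the complex had log2 fold changes of 0.25 (SE 0.151) for Runx1, 0.18 (SE 0.189) for Erg and -0.12 (SE 0.120) for Fli1. None of these passed the limma test, and the lowest adjusted p among them was 0.302, for Ssbp3.

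Gfi1b, a repressor gene of erythroid and megakaryocyte cells, had 3, 8 and 27 counts in BcorΔE9-10 libraries and 1 and 0 in BcorWT libraries. The ratio of its summed counts was 22.6 with an exact 95% interval of 3.82 to 917 for counting error only, and 27 of its 38 BcorΔE9-10 counts came from library 3 (limma adjusted p = 0.130). Kdm1a, the demethylase of the Gfi1b complex, stood at a log2 fold change of 0.68 (limma SE 0.238, adjusted p = 0.0840). Ldb2 and Runx1t1, relatives of Ldb1 and Cbfa2t3, had 0 counts in every library.

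Of 12 tested stem and progenitor genes, 4 were called (33.3%, beside 10.1% of all tested genes), among them Kit, Myb and Hmga2, which were higher. Kit, a receptor gene that Tal1 and Gata2 are known to activate and whose protein was used in the sort, had 452, 307 and 423 counts in BcorΔE9-10 libraries and 128 and 132 in BcorWT libraries (log2 fold change 1.43, SE 0.173, limma adjusted p = 9.82e-05). Myb, a progenitor factor, differed less (log2 fold change 0.41, SE 0.106, limma adjusted p = 0.0201). Hmga2, a chromatin protein gene of fetal stem cells, had 16, 16 and 13 counts against 0 and 1, a ratio of 26.8 with an exact 95% interval of 4.57 to 1080 for counting error only (limma adjusted p = 0.0240). Without BcorΔE9-10 replicate 1, BcorWT replicate 1 or BcorWT replicate 2, the list had 2 calls.

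Because Tal1, Gata1, Zfpm1 and Klf1 are also expressed in red cell precursors, erythroid genes were read beside them. Of 29 listed genes, 28 were in the table and 16 were tested. Car1, a carbonic anhydrase of early erythroid cells, was the 1 gene called (log2 fold change 2.47, SE 0.741, limma adjusted p = 0.0443), or 6.25%, beside 10.1% of all tested genes called and 6.02% called higher. The median log2 fold change of the 16 was 0.90. The summed level of the list was 234, 305 and 447 CPM in BcorΔE9-10 libraries and 195 and 230 CPM in BcorWT libraries. BcorΔE9-10 library 3 was the highest, as it was for Tal1, Ldb1, Zfpm1, Cbfa2t3 and Gata3. Gata1, Klf1, Lmo2 and Gata2 were highest among BcorΔE9-10 libraries in library 2, and Lyl1 in library 1. Globin genes spread widely within groups, as Hba-a1 had 122, 155 and 582 counts in BcorΔE9-10 libraries and 38 and 103 in BcorWT libraries (limma adjusted p = 0.0862). Several defining markers were at or near 0, with 0 to 2 counts of Epor, 0 to 5 of Alas2 and none of Tmod1 in any library. Slc4a1, the anion exchanger of red cells, had 8, 3 and 4 counts in BcorΔE9-10 libraries and 0 in both BcorWT libraries. The part of erythroid cells in the levels of Tal1, Zfpm1 and Klf1 was not tested. How many erythroid genes were called depended on the fit, from 0 to 8.

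Of the megakaryocyte genes, 10 of 18 were tested and 1 was called (10%, beside 10.1% of all tested genes), namely Cd9, a membrane protein gene that is also expressed in stem cells (log2 fold change 1.01, SE 0.141, limma adjusted p = 0.000297). Its counts were 764, 607 and 766 in BcorΔE9-10 libraries and 297 and 338 in BcorWT libraries. The median of the 10 was 0.58, and the summed level of the list was 167, 200 and 161 CPM against 126 and 98.1 CPM. Pf4, a platelet chemokine gene, stood at 0.75 on the log2 scale (limma SE 0.272, adjusted p = 0.0921), and Tubb1 had 0 counts in every library.

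Gata2 and Gata1 are also used by mast cells, basophils and eosinophils, and genes of these cells were lower where Gata2 was higher. Of 12 tested, 7 were called (58.3%), all lower in BcorΔE9-10 cells, with a median log2 fold change of -1.19. Among all tested genes 10.1% were called and 4.09% were called lower. Siglecf, an eosinophil receptor gene, was the 1 tested gene of the list with a positive log2 fold change (0.77, SE 0.269, limma adjusted p = 0.0831), with 115, 71 and 114 counts in BcorΔE9-10 libraries and 64 and 42 in BcorWT libraries. The granule protein genes Epx, Prg2 and Prss34 had log2 fold changes of -1.67 (SE 0.341), -1.30 (SE 0.150) and -1.24 (SE 0.161), with limma adjusted p of 0.00513, 7.73e-05 and 0.00017. Mcpt8, Cpa3 and Hdc had smaller ones of -1.08 (SE 0.174), -0.87 (SE 0.238) and -0.57 (SE 0.142), with limma adjusted p of 0.00111, 0.0272 and 0.018. The summed level of the list was 857, 582 and 726 CPM in BcorΔE9-10 libraries and 1635 and 1322 CPM in BcorWT libraries, without overlap. The part of these cells in the levels of Gata2 and Gata1 was not tested.

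Gata3 is used by T cells and innate lymphoid cells, whose list of 16 genes had 5 tested, with limma adjusted p of 0.0568 (Lck, a T cell kinase) or more. Its summed level was 12.2, 13.5 and 14.9 CPM in BcorΔE9-10 libraries and 12.3 and 5.62 CPM in BcorWT libraries, and Cd3e, a defining T cell gene, had 0 to 3 counts in a library. Of 11 neutrophil genes, 7 were called (63.6%), all lower in BcorΔE9-10 cells, beside 10.1% of all tested genes called and 4.09% called lower. The median log2 fold change was -0.63, and Camp, a granule peptide gene, was the 1 gene with a positive value (0.25, SE 0.095, limma adjusted p = 0.114). The part of these cells in the levels of the 10 genes was not tested.

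**Figure D5:**
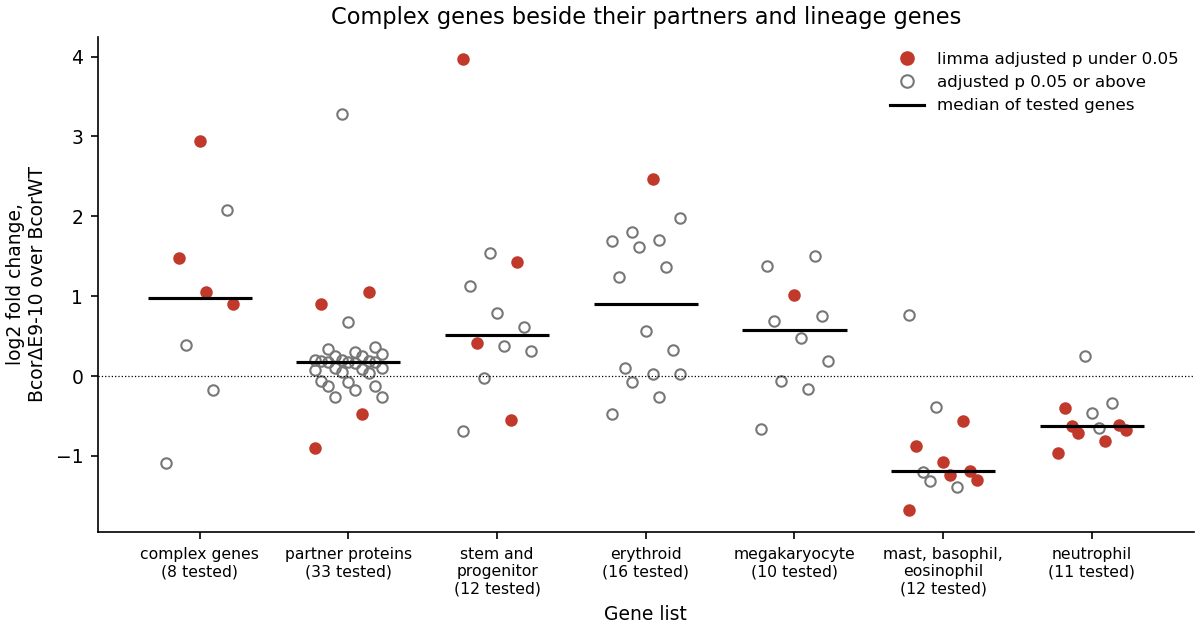
Log2 fold change (BcorΔE9-10 over BcorWT, limma) of every tested gene of the complex, of its partner list and of 5 lineage lists, with filled red points where the adjusted p was under 0.05 and a black line at each list's median. The median is 0.98 for the complex genes and 0.17 for partners, and lies below 0 for the mast, basophil and eosinophil list (-1.19) and the neutrophil list (-0.63).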

How the data were processed

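The sample titles name 3 libraries as BcorΔE9-10 and 2 as BcorWT, all from sorted KL cells and made with the QuantSeq 3′ kit. The authors removed low-quality reads, trimmed 5′ ends and poly-A sequence, aligned reads with HISAT2 (mm10) and counted them per gene with Subread (version 1.5.0-p3, also named in the submitters' processing notes). The deposited values are thus whole-number counts that were not normalised. Options for strand and for reads with several alignments are not given in the sources used here. Of 52550 genes, 52403 were given a symbol through GENCODE M21.

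Genes of low counts were left out with filterByExpr (edgeR version 4.0.16) at a minimum of 10 counts and a total of 15, libraries were scaled by TMM, and voom values were tested with limma (version 3.58.1) in R (version 4.3.3), which follows the study in using limma. Tests were two-sided with Benjamini-Hochberg adjustment over 11766 genes and a threshold of 0.05. CPM are counts per 1e+06 of the TMM-scaled total. Ratios of members within a library were compared by an exact permutation test over libraries. Within groups, each pair of libraries had a chi-square of 5.94 to 11.1 per gene, where 1 is sampling noise alone, so none was taken for a repeat deposit. Intervals on shares and on ratios of summed counts cover counting error only, as reads carried no molecular identifiers.

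All 10 members and all partner genes could be named, and of the other lists the called genes (where more than 6 were called, the 3 highest and 3 lowest), genes overlapping a member, neighbours of Ldb1, and marker genes that describe the cells. A few lineage genes that were not called (Hba-a1, Epor, Alas2, Tmod1, Slc4a1, Pf4, Tubb1, Siglecf and Camp) were chosen after their values were seen, and some listed genes are not reported here. The members and lists were chosen with earlier results of these data known. Alternatives were edgeR's quasi-likelihood test, DESeq2 (version 1.42.0), RLE and total count scaling, no filter, at least 10 counts in every library, sample quality weights, a GC correction over the last 300 transcript bases (lowess, span 0.3), a replicate block, and 1 library left out at a time. Library totals are given in the report. Scripts were tested on simulated data.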

Additional observations from a re-analysis of the deposited data

How the results depend on the processing

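With 3 and 2 libraries, genes with few counts such as Gata1, Gata3, Klf1 and Zfpm1 are poorly measured. Of 118 fold changes of single members under alternatives, 114 kept their direction and their side of the threshold. Tal1 missed it without BcorΔE9-10 replicate 3 or BcorWT replicate 2. Lyl1 turned to 0.008 after GC correction and to 0.024 when the block was added to it. Total count scaling took the log2 median over all tested genes from 0.004 to 0.149 and gave 1210 higher and 197 lower calls. With 1 library left out, 558 to 1200 genes were called. Without a BcorWT library the remaining one is assumed to vary like the others. The partner list had 2 to 4 calls so, the stem and progenitor list 2 to 4, and the erythroid list 0 to 6. Erythroid calls were 5 with edgeR, 2 with DESeq2, 3 with total count scaling, 8 with no filter, 0 with quality weights and 0 with GC correction, and megakaryocyte calls were 2 with total count scaling. The log2 difference in ratio ranged from 1.20 to 2.19 for Tal1 to Lyl1, -0.036 to 0.925 for Tal1 to Gata2, -0.072 to 1.288 for Tal1 to Lmo2 (below 0 without BcorWT replicate 2), 1.74 to 2.41 for Ldb1 to Lmo2 and -1.75 to -0.52 for Cbfa2t3 to Tal1 with 1 library left out. That of Gata2 to Lyl1 ranged from 1.18 to 1.32 with 1 library left out. The cause of these shifts was not tested.

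Replicate numbers 1 and 2 occur in both groups, and the labels do not say whether same-numbered libraries share more than a number. Correlations of their deviations from group means were 0.07 and 0.0756, beside -0.07 and -0.0756 for unlike numbers. With 2 BcorWT libraries these values mirror each other, so they cannot decide the question. With the replicate block 1454 genes were called, with 6 erythroid and 2 megakaryocyte calls (5 and 3 with the GC correction added). Ldb1, Lmo2, Gata2 and Tal1 had log2 fold changes of 2.83, 0.90, 1.16 and 1.28. Their limma adjusted p were 5.82e-08, 7.6e-05, 0.000366 and 0.0251. The block leaves 1 residual degree of freedom, so these rest almost wholly on variance pooled over genes. They are not stronger evidence than the main fit. Replicate 3 has no same-numbered partner and adds nothing to the genotype difference here. In simulated data with 200 changed genes the block gave 13 false calls, beside 5 for limma without it.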
